A study of Mus musculus with 24 samples.

Results

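NF-κB signalling was followed in fetal mouse liver through 38 genes of the 25361 in the expression table. They were listed by name, as 26 components of the pathway and 12 of its targets and cytokines, and the rule uses no measured value. The components were 5 NF-κB subunits, 5 IκB proteins, 3 genes of the IκB kinase (IKK), 5 receptors and 8 adaptors or feedback regulators. RNA came from E12.5 livers of 4 genotypes, with 3 embryos each, and each liver was split into CD146+ cells, called liver sinusoidal endothelial cells (LSECs), and the cells left after that selection, called non-EC cells. This gave 24 libraries, 12 per fraction.

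The genotypes came from crosses of floxed *Brg1* and *Chd4* mice carrying a VE-cadherin-Cre transgene. *Brg1* (*Smarca4*) encodes the ATPase of the SWI/SNF remodelers and *Chd4* the ATPase of the NuRD remodeler. Controls (Ctrl) were littermates without Cre that carry floxed alleles from the same cross. *Chd4-ECko* embryos were Chd4 fl/fl and Brg1 fl/+ with Cre, *Brg1-ECko* embryos were Brg1 fl/fl and Chd4 fl/+ with Cre, and *Brg1/Chd4-ECdko* embryos were fl/fl at both genes with Cre. Each single mutant was thus heterozygous for the other gene in the same cells. VE-cadherin-Cre acts in endothelial cells and is known to act in some blood cells of the liver later in gestation, and whether non-EC cells of these livers carried deleted alleles was not tested. The background was mixed and embryos of both sexes were used.

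NF-κB proteins are dimers of Rel-family subunits that IκB proteins hold in the cytoplasm of unstimulated cells. When receptors for TNF, for bacterial products or for CD40 ligand are engaged, adaptors bring in IKK, IκB is destroyed and the dimers enter the nucleus to bind κB sites. Among the genes they induce are chemokines and cytokines, and also *Nfkbia* and *Tnfaip3*, whose products shut the pathway down. In the liver the pathway is known for its part in inflammation and in the protection of hepatocytes from TNF.

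Several members are known NF-κB targets, and their upstream sequences are shown for that reason. The 250 bases before the start of the canonical transcript were read for each gene from GRCm39 with the GENCODE annotation and searched, on both strands and with overlaps allowed, for the NF-κB (κB) consensus motif of 10 bases. A match was present in 13 of 38 members (34.2%), against 921 of 21757 protein-coding genes (4.23%). It was present in 7 of the 12 targets and cytokines (58.3%) and in 6 of the 26 components (23.1%). The targets were listed because they are known to be induced by NF-κB, so their share describes the list. The components with a match were *Relb*, *Nfkbia*, *Nfkbie*, *Tlr2*, *Cd40* and *Tnfaip3*, and the targets were *Il6*, *Cxcl1*, *Cxcl2*, *Cxcl10*, *Ccl5*, *Csf1* and *Ier3*. A match is a description of letters and was not tested as a binding site.

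The windows of 7 genes that differ between fractions or genotypes below are printed, of which 6 were chosen from those that hold a match and *Ccl2* as one without. *Bcl3*, *Tnfrsf1a*, *Tnfaip2* and *Sod2*, which also differ below, have no match in their windows and are not printed. *Tlr2*, *Nfkbie*, *Ier3*, *Ccl5* and *Tnfaip3* hold a match and differ between the fractions below, and are not printed either. Each printed window is written 5′ to 3′ on the strand of its gene, in GRCm39, and ends at the base before the transcript start. Capitals mark the κB matches. *Nfkbia* (IκBα, chr12:55539433-55539682, minus strand) has 1 match that begins 29 bases before the start. *Relb* (chr7:19363424-19363673, minus strand) has 1 at 37 bases, *Cd40* (chr2:164897294-164897543, plus strand) has 1 at 71 bases, and *Csf1* (chr3:107667807-107668056, minus strand) has 1 at 133 bases. *Cxcl1* (chr5:91038844-91039093, plus strand) has 2 matches on opposite strands, at 61 and 60 bases, which overlap and appear as a single capital run. *Cxcl10* (chr5:92496749-92496998, minus strand) has 2 separate matches at 159 and 103 bases. *Ccl2* (chr11:81926147-81926396, plus strand) has none in this window and so has no capitals.
Nfkbia: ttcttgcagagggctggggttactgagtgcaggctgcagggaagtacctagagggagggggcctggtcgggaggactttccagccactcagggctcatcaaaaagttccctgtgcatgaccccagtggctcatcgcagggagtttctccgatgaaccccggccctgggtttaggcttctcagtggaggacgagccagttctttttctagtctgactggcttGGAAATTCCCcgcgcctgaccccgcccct
Relb: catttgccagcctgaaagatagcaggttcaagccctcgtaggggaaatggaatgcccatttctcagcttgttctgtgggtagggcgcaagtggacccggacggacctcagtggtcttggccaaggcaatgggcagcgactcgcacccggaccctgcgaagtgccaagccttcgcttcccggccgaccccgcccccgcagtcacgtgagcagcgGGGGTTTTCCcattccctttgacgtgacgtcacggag
Cd40: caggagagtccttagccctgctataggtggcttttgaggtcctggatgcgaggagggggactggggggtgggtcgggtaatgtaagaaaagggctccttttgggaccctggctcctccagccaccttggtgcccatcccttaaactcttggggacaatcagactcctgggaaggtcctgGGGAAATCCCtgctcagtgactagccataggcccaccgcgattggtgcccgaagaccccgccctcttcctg
Csf1: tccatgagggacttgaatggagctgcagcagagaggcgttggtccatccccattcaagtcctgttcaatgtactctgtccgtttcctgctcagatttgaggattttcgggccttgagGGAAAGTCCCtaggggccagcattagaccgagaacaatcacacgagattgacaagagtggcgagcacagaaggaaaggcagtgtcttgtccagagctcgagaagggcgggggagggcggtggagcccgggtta
Cxcl1: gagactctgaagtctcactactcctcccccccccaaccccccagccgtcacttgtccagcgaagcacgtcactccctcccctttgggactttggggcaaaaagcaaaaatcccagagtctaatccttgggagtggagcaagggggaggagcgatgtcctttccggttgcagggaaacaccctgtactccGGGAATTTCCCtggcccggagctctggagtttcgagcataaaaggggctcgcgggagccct
Cxcl10: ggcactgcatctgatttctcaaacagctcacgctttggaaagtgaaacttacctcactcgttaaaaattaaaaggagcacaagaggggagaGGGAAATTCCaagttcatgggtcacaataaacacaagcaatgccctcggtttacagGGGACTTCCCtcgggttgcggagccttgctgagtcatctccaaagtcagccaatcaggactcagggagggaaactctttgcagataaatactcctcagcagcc
Ccl2: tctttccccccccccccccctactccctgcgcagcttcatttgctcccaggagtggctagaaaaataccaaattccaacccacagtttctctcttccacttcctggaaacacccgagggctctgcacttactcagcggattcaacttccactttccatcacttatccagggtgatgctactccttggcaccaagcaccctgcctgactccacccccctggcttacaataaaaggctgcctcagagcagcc

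Values are TPM, in which reads are corrected for gene length and summed to 1000000 per library, so levels of different genes can be compared but the number of reads behind a value cannot be recovered. Between 11450 and 13219 genes reached 1 TPM per library. The endothelial markers summed to 945 to 1944 TPM in LSECs, with 10 of 10 genes detected, and to 33.4 to 78.6 TPM in non-EC cells. The LSEC libraries also held macrophage markers (601 to 1383 TPM, 12 of 12 genes detected, against 117 to 427 TPM in non-EC cells) and mesenchymal markers (949 to 1526 against 21.6 to 83.1 TPM). Hepatoblast markers summed to 15676 to 33603 TPM in non-EC cells and to 3027 to 7219 TPM in 11 LSEC libraries, while *Brg1-ECko* LSEC replicate 1 stood apart at 25515 TPM. In such bulk samples fewer cells of a type and less RNA per cell cannot be told apart. The targeted genes did not pass the test in the LSECs of any mutant. *Chd4* was at 246 to 285 TPM in Ctrl and 168 to 252 TPM in *Chd4-ECko* LSECs (log2 difference −0.30, limma adjusted p = 0.962), and *Smarca4* at 134 to 161 TPM in Ctrl and 111 to 157 TPM in *Brg1-ECko* LSECs (−0.16, limma adjusted p = 0.779). In the double mutant LSECs *Chd4* was at 242 to 256 TPM (−0.07, limma adjusted p = 0.869) and *Smarca4* at 117 to 151 TPM (−0.14, limma adjusted p = 0.704). These gene-level values do not separate the floxed exons, and the genotypes are those of the labels.

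A member counted as detected in a fraction when it reached 1 TPM in at least 3 of its 12 libraries. In LSECs 35 of 38 members were detected, 25 of 26 components and 10 of 12 targets. In non-EC cells 32 were detected, again 25 of 26 components and 7 of 12 targets. The 25 components were the same genes in both fractions, and the undetected component was *Traf1*.

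The highest member in LSECs was *Tnfrsf1a*, the main TNF receptor, at 68.8 ± 8.94 TPM (SD, n = 12), followed by *Nfkbia* at 55.6 ± 8.7 TPM, *Tnip1*, a partner of A20 that restrains signalling, at 39.9 ± 5.48 TPM, *Tnfaip2* at 36.2 ± 10.4 TPM and *Nfkb1* at 36 ± 3.17 TPM. The spreads of *Tnfrsf1a* and *Nfkbia* overlap, as do those of the last 3. In non-EC cells *Tnfaip2*, a TNF-induced gene, was highest at 131 ± 16.3 TPM. It was followed by *Sod2*, the mitochondrial superoxide dismutase, at 38.9 ± 2.8 TPM, *Rela* at 38.8 ± 4.11 TPM, *Nfkbib* at 36.8 ± 4.99 TPM and *Chuk* at 36.5 ± 9.08 TPM, which do not differ from each other beyond their spread.

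Among the subunits, *Nfkb1* (p105/p50) and *Rela* (p65) were the most abundant in both fractions, *Nfkb2* (p100/p52) was intermediate, and *Relb* and *Rel* (c-Rel) were low. In LSECs *Rela* was at 25.8 ± 2.66 TPM, *Nfkb2* at 11 ± 1.97 TPM, *Relb* at 5 ± 0.883 TPM and *Rel* at 2.06 ± 0.453 TPM. The order in non-EC cells put *Rela* first, then *Nfkb1* at 29.3 ± 3.28 TPM, *Nfkb2* at 8.94 ± 1.47 TPM, *Relb* at 1.94 ± 0.629 TPM and *Rel* at 1.43 ± 0.584 TPM, with the last 2 inside each other's spread.

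**Figure D1:**
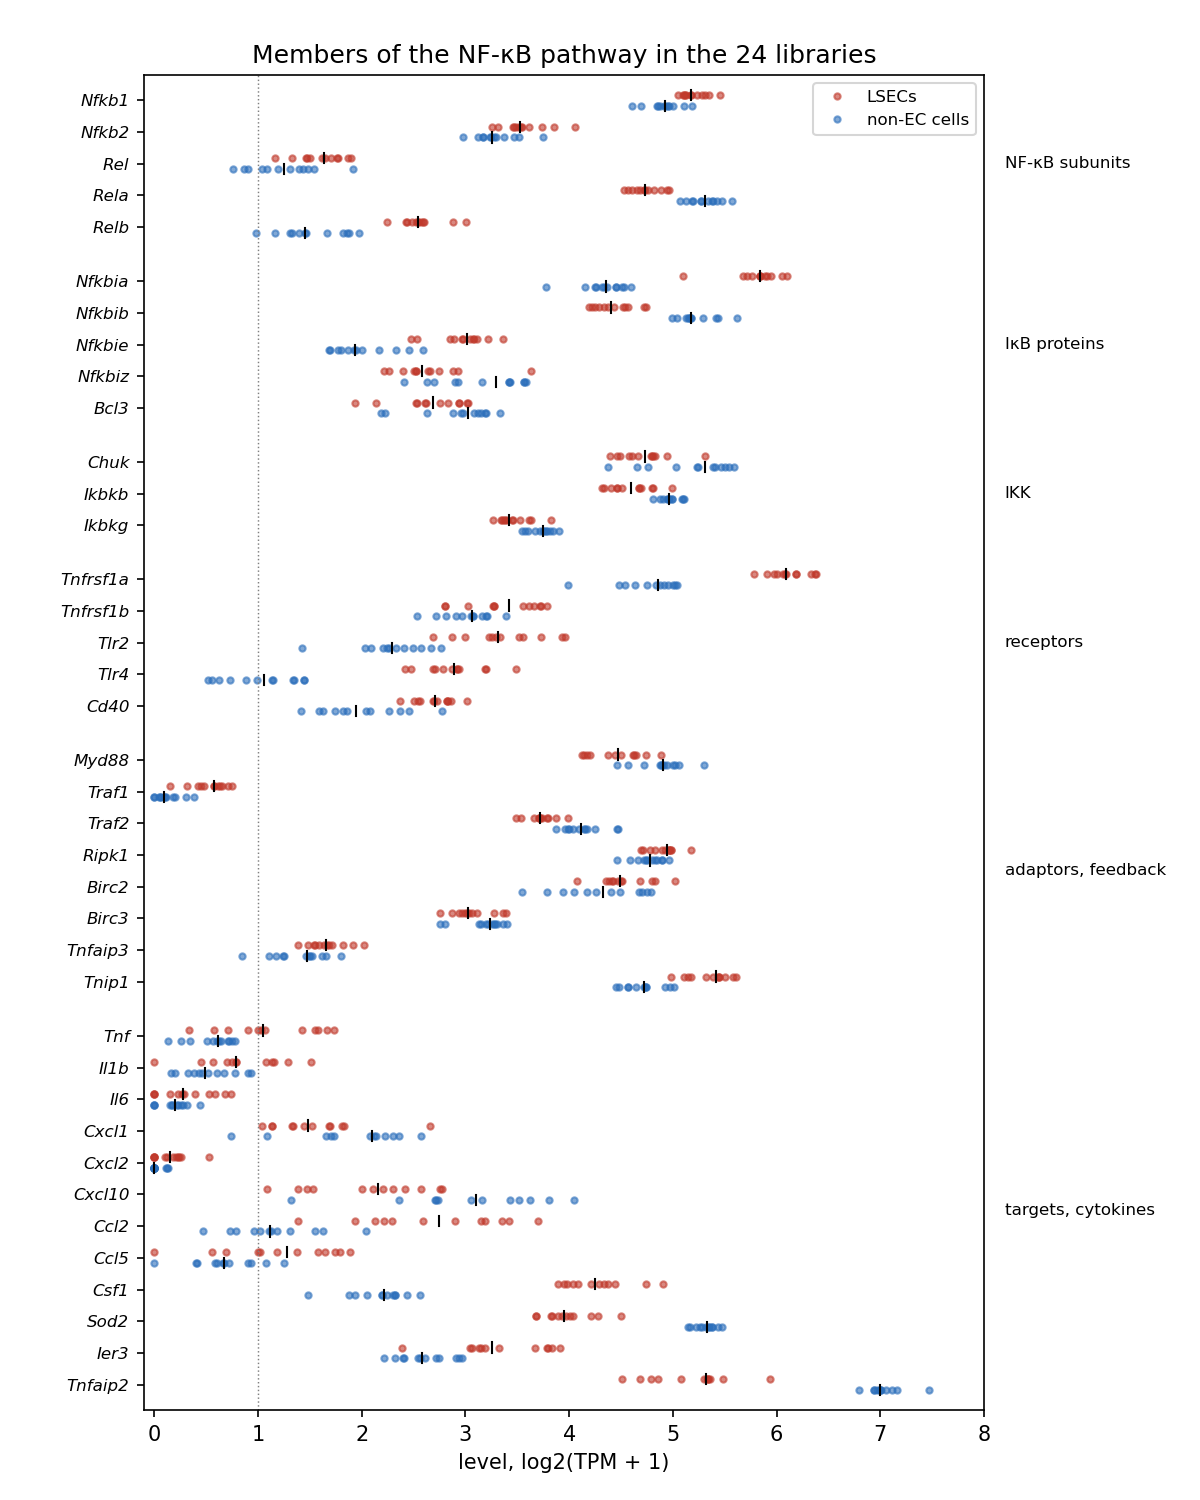
TPM of the 38 members on a log2(TPM + 1) axis, grouped by role, with 1 point per library for the 12 LSEC and 12 non-EC libraries, a tick at the median of each fraction and a dotted line at 1 TPM. *Nfkb1*, *Rela*, *Chuk* and *Ikbkb* lie above 10 TPM in all 24 libraries, while *Il6*, *Cxcl2* and *Traf1* lie below it in all 24 libraries.

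The members under the detection limit were mostly cytokines. *Il6* was between 0 and 0.674 TPM in LSECs (median 0.207) and between 0 and 0.353 TPM in non-EC cells (median 0.145). *Cxcl2*, a neutrophil-attracting chemokine, was between 0 and 0.44 TPM in LSECs (median 0.113) and listed at 0 to 0.0939 TPM in non-EC cells. *Traf1*, an adaptor that NF-κB itself induces, was between 0.111 and 0.681 TPM in LSECs (median 0.487) and between 0 and 0.303 TPM in non-EC cells (median 0.0694). *Tnf* (LSEC median 1.07 TPM, range 0.258 to 2.33), *Il1b* (0.729 TPM, 0 to 1.86) and *Ccl5*, a chemokine for T cells and monocytes (1.43 TPM, 0 to 2.7), were detected only in LSECs. Their non-EC medians were 0.53, 0.407 and 0.589 TPM, with highest libraries at 0.716, 0.905 and 1.39 TPM, so the ranges of the fractions overlap for all 3. *Cxcl1* and *Cxcl2* are close paralogs whose starts lie 12.6 kb apart on chromosome 5, so reads that fit both cannot be resolved here.

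The fractions differed for nearly every member. In a limma model of all 24 libraries on log2(TPM + 1), 34 of 35 members passed an adjusted p of 0.05, 21 higher and 13 lower in LSECs, and under quantile normalization 30 passed (13 higher, 17 lower). The model did not use the embryo pairs, and with the pair as a block 34 passed as well (21 higher, 13 lower). *Tnf*, *Il1b* and *Ccl5*, counted among the 21, met the filter only through their LSEC libraries. Their call as higher in LSECs thus partly restates the filter. Over all 13775 genes tested 82.6% passed, 41.4% higher and 41.2% lower, so a called member was the rule for this comparison and only the sizes and directions are described. The members' median difference was 0.28 on the log2 scale, against −0.00 for all genes. Values of the 12 LSEC and 12 non-EC libraries did not overlap for 9 of 35 members, against 37.7% of all genes. Only *Birc3* (cIAP2), an inhibitor-of-apoptosis protein with ubiquitin ligase activity, did not pass (−0.11, limma adjusted p = 0.188). Under quantile normalization *Birc3* was called lower in LSECs (−0.49, limma adjusted p = 6.31e-08).

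**Figure D2:**
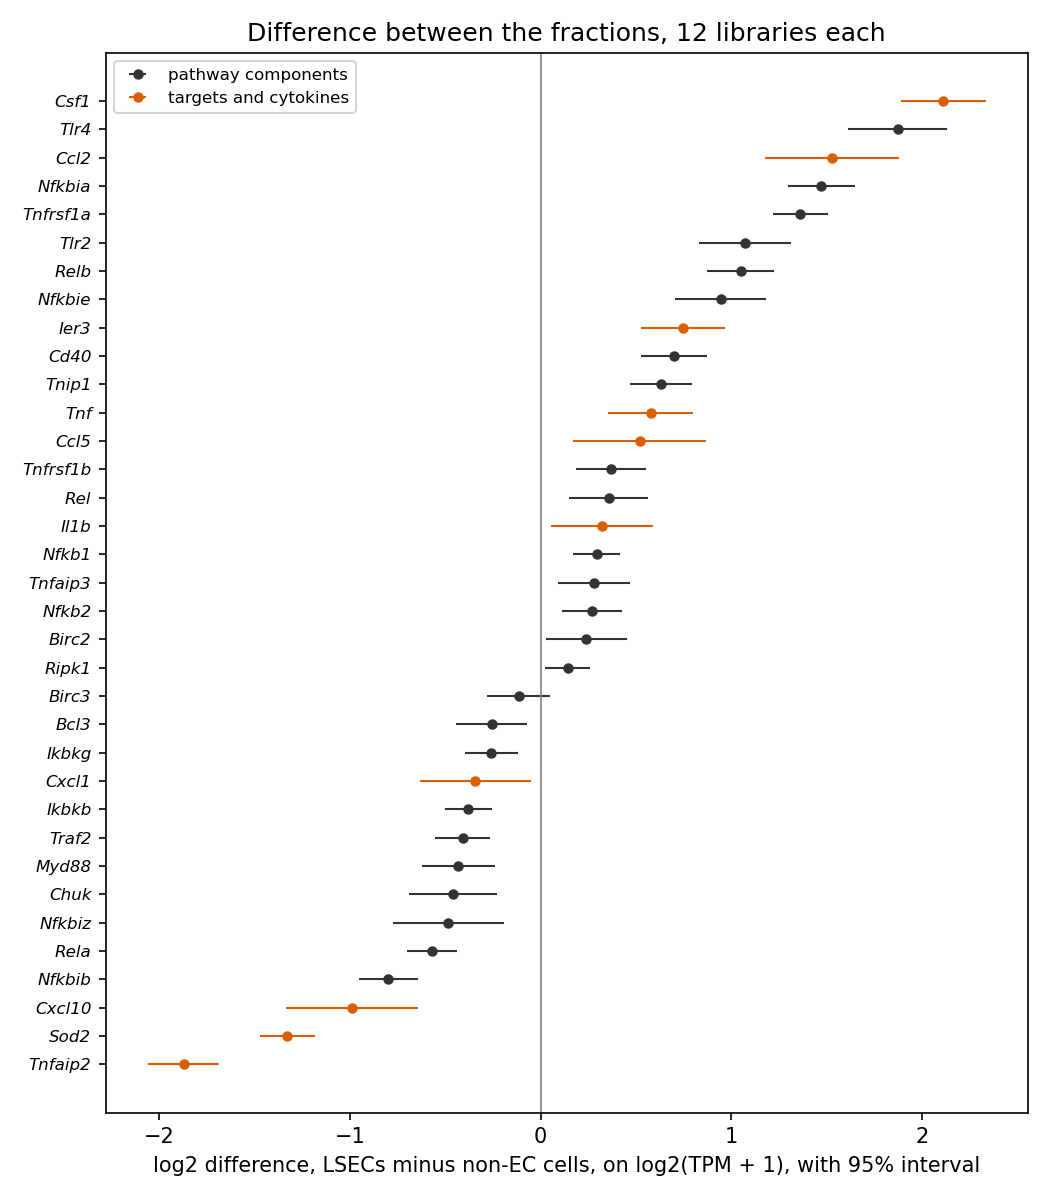
Difference between LSECs and non-EC cells for the 35 members tested, on log2(TPM + 1), with 95% intervals from limma and 12 libraries per fraction. *Csf1* (2.11) and *Tlr4* (1.87) lie farthest to the side of LSECs and *Tnfaip2* (−1.87) and *Sod2* (−1.33) farthest to the side of non-EC cells.

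All 5 receptors were higher in LSECs, also after quantile normalization, where *Tnfrsf1b* and *Cd40* no longer passed the test. *Tnfrsf1a* was between 54.2 and 82.2 TPM in LSECs (median 67.1) and between 14.9 and 31.8 TPM in non-EC cells (median 28). Every LSEC library lay above every non-EC library, with a log2 difference of 1.36 (SE 0.07, limma adjusted p = 7.97e-14). *Tlr4*, the lipopolysaccharide receptor, was between 4.33 and 10.2 TPM in LSECs (median 6.43) and between 0.431 and 1.73 TPM in non-EC cells (median 1.09), again without overlap (1.87, SE 0.12, limma adjusted p = 8.27e-12). *Tlr2*, the receptor for bacterial lipoproteins, was between 5.43 and 14.5 TPM in LSECs (median 8.95) and between 1.68 and 5.79 TPM in non-EC cells (median 3.91), where only the lowest LSEC library lay below the highest non-EC library (1.07, SE 0.12, limma adjusted p = 2.45e-08). *Cd40* differed by 0.70 and *Tnfrsf1b*, the second TNF receptor, by 0.37. In the control libraries alone *Tnfrsf1b* differed by 0.08 and did not pass (limma adjusted p = 0.682). The macrophage and mesenchymal markers given above were also higher in every LSEC library than in any non-EC library, and their part in these differences was not tested.

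The subunits and IκB genes were split between the fractions. *Relb*, a subunit of the non-canonical pathway, was between 3.72 and 7.04 TPM in LSECs (median 4.82) and between 0.972 and 2.92 TPM in non-EC cells (median 1.74), without overlap (log2 difference 1.05, SE 0.08, limma adjusted p = 2.19e-10). *Rela* was the reverse, lower in LSECs by 0.57 on the log2 scale and also without overlap. Of the other subunits *Nfkb1* (0.29), *Nfkb2* (0.27) and *Rel* (0.36) were higher in LSECs, but under quantile normalization *Nfkb2* was at 0.00 and *Rel* changed sign, as *Rel* also did in the control libraries alone. *Nfkbia* was between 33.3 and 67.5 TPM in LSECs (median 56.3) and between 12.7 and 23.2 TPM in non-EC cells (median 19.4), and the fractions did not overlap (1.47, SE 0.08, limma adjusted p = 7.72e-13). *Nfkbie* (IκBε) was also higher in LSECs (0.94), whereas *Nfkbib* (IκBβ, −0.80) and the nuclear family members *Nfkbiz* (−0.48) and *Bcl3* (−0.26) were lower. In the control libraries alone *Nfkbiz* (−0.50, limma adjusted p = 0.0576) and *Bcl3* (−0.15, limma adjusted p = 0.537) did not pass. *Nfkb2* did not pass there either (0.19, limma adjusted p = 0.287).

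All 3 genes of the IKK complex were lower in LSECs, under quantile normalization and in the control libraries alone as well. The catalytic subunits *Chuk* (IKKα) and *Ikbkb* (IKKβ) differed by −0.46 and −0.38, and the scaffold *Ikbkg* (NEMO) by −0.26. Among the adaptors and feedback regulators, *Tnip1* (0.63), *Ripk1* (0.14), *Birc2* (0.24) and *Tnfaip3* (A20, 0.28) were higher in LSECs, with *Tnfaip3* changing sign under quantile normalization and *Birc2* in the control libraries alone. *Ripk1* (limma adjusted p = 0.195) and *Tnfaip3* (limma adjusted p = 0.362) did not pass in the control libraries alone. *Myd88*, the adaptor of most Toll-like receptors (−0.43), and *Traf2*, an adaptor of the TNF receptors (−0.41), were lower.

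The targets held the largest differences in each direction. *Csf1*, the growth factor of macrophages, was between 13.9 and 29 TPM in LSECs (median 18) and between 1.78 and 4.9 TPM in non-EC cells (median 3.65), without overlap (log2 difference 2.11, SE 0.11, limma adjusted p = 7.73e-14). *Ccl2*, which attracts monocytes, was between 1.61 and 12 TPM in LSECs (median 5.74) and between 0.387 and 3.13 TPM in non-EC cells (median 1.17), with overlap at the low end of LSECs (1.53, SE 0.17, limma adjusted p = 3.3e-08). In the control libraries alone the *Ccl2* difference was 0.79 (limma adjusted p = 0.0172). *Ier3*, an immediate early gene, was higher by 0.75.

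Other targets were higher in non-EC cells. *Tnfaip2* was between 21.8 and 60.2 TPM in LSECs (median 38.8) and between 110 and 176 TPM in non-EC cells (median 127), without overlap (−1.87, SE 0.09, limma adjusted p = 3.29e-14). *Sod2* was between 11.8 and 21.7 TPM in LSECs (median 14.5) and between 34.4 and 43.6 TPM in non-EC cells (median 39.3), also without overlap (−1.33, SE 0.07, limma adjusted p = 1.26e-13). *Cxcl10*, an interferon-induced chemokine, was between 1.12 and 5.84 TPM in LSECs (median 3.46) and between 1.49 and 15.6 TPM in non-EC cells (median 7.61), where the ranges overlap widely (−0.99, SE 0.17, limma adjusted p = 1.29e-05). In the control libraries alone the *Cxcl10* difference was −0.59 and did not pass (limma adjusted p = 0.177). *Cxcl1* was slightly lower in LSECs (−0.34) but changed sign in the control libraries alone. For *Tnf* (0.58), *Il1b* (0.32) and *Ccl5* (0.52), which were low in both fractions and entered the test only through LSECs, the sign changed under quantile normalization.

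The first question for the genotypes was whether loss of *Chd4*, *Brg1* or both in endothelial cells changed NF-κB genes in LSECs. In *Chd4-ECko* LSECs 0 of 35 members passed limma's adjusted test, where 0.707% of 13444 genes did. At an unadjusted p under 0.05 there were 8, all higher than in Ctrl, against 6.49% of all genes. The median difference of the members was 0.17, against 0.01 for all genes. The 25 components ranged from −0.25 to 0.87 and the 10 targets from −0.27 to 0.98. Over all genes in LSECs, mutant and Ctrl libraries did not overlap for 12.3% with *Chd4-ECko*, 14.6% with *Brg1-ECko* and 23.1% with *Brg1/Chd4-ECdko*.

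The member nearest to a call in *Chd4-ECko* LSECs was *Tlr2*. It was at 5.43, 6.29 and 7 TPM in Ctrl and at 8.78, 14.5 and 14.2 TPM in *Chd4-ECko* LSECs. The groups do not overlap and replicates 2 and 3 of the mutant are about equally high, and the log2 difference was 0.87 (SE 0.20, limma adjusted p = 0.0621). *Tnfrsf1b* was at 7.16, 5.99 and 5.97 TPM in Ctrl and at 8.71, 12.2 and 12.8 TPM in the mutants, also without overlap (0.72, limma adjusted p = 0.113). *Ccl2* (0.98, limma adjusted p = 0.219), *Bcl3* (0.62), *Tlr4* (0.59), *Tnfaip2* (0.59), *Ier3* (0.53) and *Nfkbib* (0.34) made up the rest of the 8. Without *Chd4-ECko* replicate 1, the mutant nearest to Ctrl for *Tlr2*, 3 members passed (*Ccl2*, *Tlr2* and *Tnfrsf1b*). *Tlr2* alone passed with the replicate number as a block. It also passed alone in a model without *Brg1-ECko* replicate 1, an alternative chosen after the data were seen.

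The *Chd4-ECko* LSEC libraries also held more leukocyte transcripts. Leukocyte markers summed to 236 to 400 TPM in *Chd4-ECko* and to 122 to 193 TPM in Ctrl LSECs, and macrophage markers to 877 to 1383 TPM and 601 to 922 TPM. Of the 7 leukocyte markers 3 rose and of the 12 macrophage markers 1 rose by limma's adjusted test, and 10 of these 12 were higher at an unadjusted p under 0.05. Immediate early genes that respond to cell dissociation summed to 129 to 189 TPM, against 125 to 140 TPM in Ctrl LSECs. Of 8 tested, 3 were higher at that p and 0 were called. All 7 erythroid markers were above Ctrl (median 0.64), 2 of them at that p, with 0 called. The part of these lists in the values of *Tlr2*, *Tnfrsf1b* and the other members was not tested.

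The main cytokine genes showed no call in *Chd4-ECko* LSECs. *Tnf* was at 1.1, 0.638 and 1.99 TPM in Ctrl and at 2.17, 1.93 and 2.33 TPM in *Chd4-ECko*, which overlap (0.53, 95% interval −0.01 to 1.07, limma adjusted p = 0.798). *Il1b* was at 0.483, 0.675 and 0.731 TPM in Ctrl and at 1.19, 1.22 and 1.11 TPM in *Chd4-ECko*, without overlap but at levels near the pseudocount (0.42, interval −0.22 to 1.06). It reached 1 TPM in 5 LSEC libraries, among them every *Chd4-ECko* library, and would not have met the filter without that group. Its higher level there thus partly restates the filter. *Il6* was at 0, 0.215 and 0 TPM in Ctrl and at 0.199, 0.496 and 0.674 TPM in *Chd4-ECko*, which overlap and lie under the limit of detection throughout.

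In *Brg1-ECko* LSECs 0 of 35 members passed the adjusted test, against 0.0223% of all genes, and 10 had an unadjusted p under 0.05 by limma, against 9.68% of all genes. Of these 9 were higher, among them *Tnfaip2* (0.72), *Cxcl10* (0.96) and *Tnfrsf1b* (0.61), and only *Ccl5* was lower (−0.96). The members' median was 0.19, against 0.08 for all genes. *Cxcl10* was at 3.01, 1.89 and 1.12 TPM in Ctrl and at 5.84, 3.92 and 4.35 TPM in *Brg1-ECko* LSECs, without overlap (limma adjusted p = 0.311). *Ccl5* was at 2.46, 2.7 and 1.6 TPM in Ctrl and at 0, 0.996 and 1.27 TPM in the mutants, also without overlap (limma adjusted p = 0.426). *Tnfaip2* was at 24.7, 26.6 and 21.8 TPM in Ctrl and at 60.2, 39.9 and 27.9 TPM in the mutants. Its highest value was in replicate 1, the library with 25515 TPM of hepatoblast markers, and *Tnfaip2* was the member with the highest level in non-EC cells. The count stayed at 0 without that library. By limma's unadjusted p under 0.05, all 6 hepatoblast markers and 5 of 7 leukocyte markers were higher in *Brg1-ECko* LSECs and 5 of 10 endothelial markers were lower, and 0 of these passed the adjusted test. Endothelial markers summed to 945 to 1514 TPM, against 1487 to 1944 TPM in Ctrl, and leukocyte markers to 198 to 249 TPM, against 122 to 193 TPM. Of the 12 macrophage markers 11 were above Ctrl, with 4 higher and 1 lower at an unadjusted p under 0.05 and 0 called (697 to 1010 TPM, against 601 to 922 TPM). The part of these lists in the members' values was not tested.

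In *Brg1/Chd4-ECdko* LSECs *Ccl2* rose, and no other member passed the test. *Ccl2* was at 2.82, 1.61 and 3.66 TPM in Ctrl and at 9.67, 9.21 and 12 TPM in *Brg1/Chd4-ECdko* LSECs. All 3 double mutants lay above all LSEC libraries of the other genotypes, of which *Chd4-ECko* had 3.38, 8.14 and 7.88 TPM and *Brg1-ECko* 5.02, 3.91 and 6.46 TPM. The means were 10.3 ± 1.51 and 2.69 ± 1.03 TPM (SD, n = 3 each), a log2 difference of 1.65 (SE 0.29, 95% interval 1.03 to 2.26, limma adjusted p = 0.0144). This was 1 of 35 members called, where 0.87% of all genes were called and 0.751% were called higher. The call was lost without Ctrl replicate 1 (limma adjusted p = 0.0551), Ctrl replicate 2 (0.0842) or *Brg1/Chd4-ECdko* replicate 3 (0.104), and under quantile normalization (0.0567). With the replicate number as a block 2 members rose (*Ccl2* and *Cxcl10*), and with the compared groups alone 3 (*Ccl2*, *Ier3* and *Tnfaip2*). Without *Brg1-ECko* replicate 1, left out after the data were seen, 3 members rose (*Ccl2*, *Ier3* and *Tnfaip2*).

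In non-EC cells *Ccl2* was at 1.48, 0.656 and 1.18 TPM in Ctrl and at 0.726, 3.13 and 1.27 TPM in *Brg1/Chd4-ECdko*, which overlap. The difference of 0.28 there had an interval of −0.49 to 1.06, and the difference between the fractions' effects did not pass the adjusted test (1.36, SE 0.48, limma adjusted p = 0.459). The double mutant exceeded *Chd4-ECko* LSECs by 0.67 (limma adjusted p = 0.475) and *Brg1-ECko* LSECs by 0.90 (0.458), so *Ccl2* was not distinguished between the mutants.

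In the double mutant LSECs 13 members had an unadjusted p under 0.05 by limma and all were higher than in Ctrl, against 12.1% of all genes in either direction and 10.9% higher. They were *Ccl2*, *Tnfrsf1b* (0.66), *Tlr2* (0.68), *Tnfaip2* (0.71), *Cxcl10* (0.94), *Ier3* (0.68), *Bcl3* (0.63), *Nfkb2* (0.47), *Ikbkb* (0.44), *Myd88* (0.50), *Rel* (0.47), *Sod2* (0.41) and *Birc3* (0.36). The median of all 35 was 0.29, but all genes were shifted the same way, with a median of 0.16 that quantile normalization brought to −0.00. *Ier3* was at 7.38, 7.86 and 7.76 TPM in Ctrl and at 12.9, 14 and 11.8 TPM in *Brg1/Chd4-ECdko* LSECs, without overlap (limma adjusted p = 0.182). *Tnf* was at 0.999, 0.87 and 1.68 TPM and did not differ beyond its spread from Ctrl (−0.01, interval −0.55 to 0.53). *Il1b* was at 1.45, 0 and 0.37 TPM and *Il6* at 0.607, 0.44 and 0.31 TPM.

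Leukocyte markers summed to 233 to 299 TPM in *Brg1/Chd4-ECdko* LSECs, above the 122 to 193 TPM of Ctrl, and macrophage markers to 692 to 1144 TPM, which overlap the Ctrl range of 601 to 922 TPM. By limma's unadjusted p under 0.05, 6 of 7 leukocyte markers were higher, and 1 of them passed the adjusted test. Of the 12 macrophage markers 11 were above Ctrl, with 5 higher and 1 lower at that p and 0 called. Immediate early genes that respond to cell dissociation, 9 in the list with *Fos*, *Jun* and *Atf3* among them, summed to 157 to 189 TPM in *Brg1/Chd4-ECdko* and 125 to 140 TPM in Ctrl LSECs, with 3 of 8 tested genes higher at that p and 0 called. All 6 hepatoblast markers were above Ctrl (median 0.41), with 0 at that p. Of the 10 endothelial markers 3 were above and 7 below Ctrl, 2 of them lower at that p, with 0 called. The part of these lists in the value of *Ccl2* or *Ier3* was not tested. Against the single mutants, 0 of 35 members passed in *Brg1/Chd4-ECdko* LSECs. For the contrast with *Chd4-ECko* 0.0372% of all genes passed and 4 members had an unadjusted p under 0.05 by limma (10.4% of all genes). For the contrast with *Brg1-ECko* 0.0967% passed and 2 members had an unadjusted p under 0.05 (6.1% of all genes), *Ier3* (0.92, limma adjusted p = 0.137) and *Ccl2*.

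**Figure D3:**
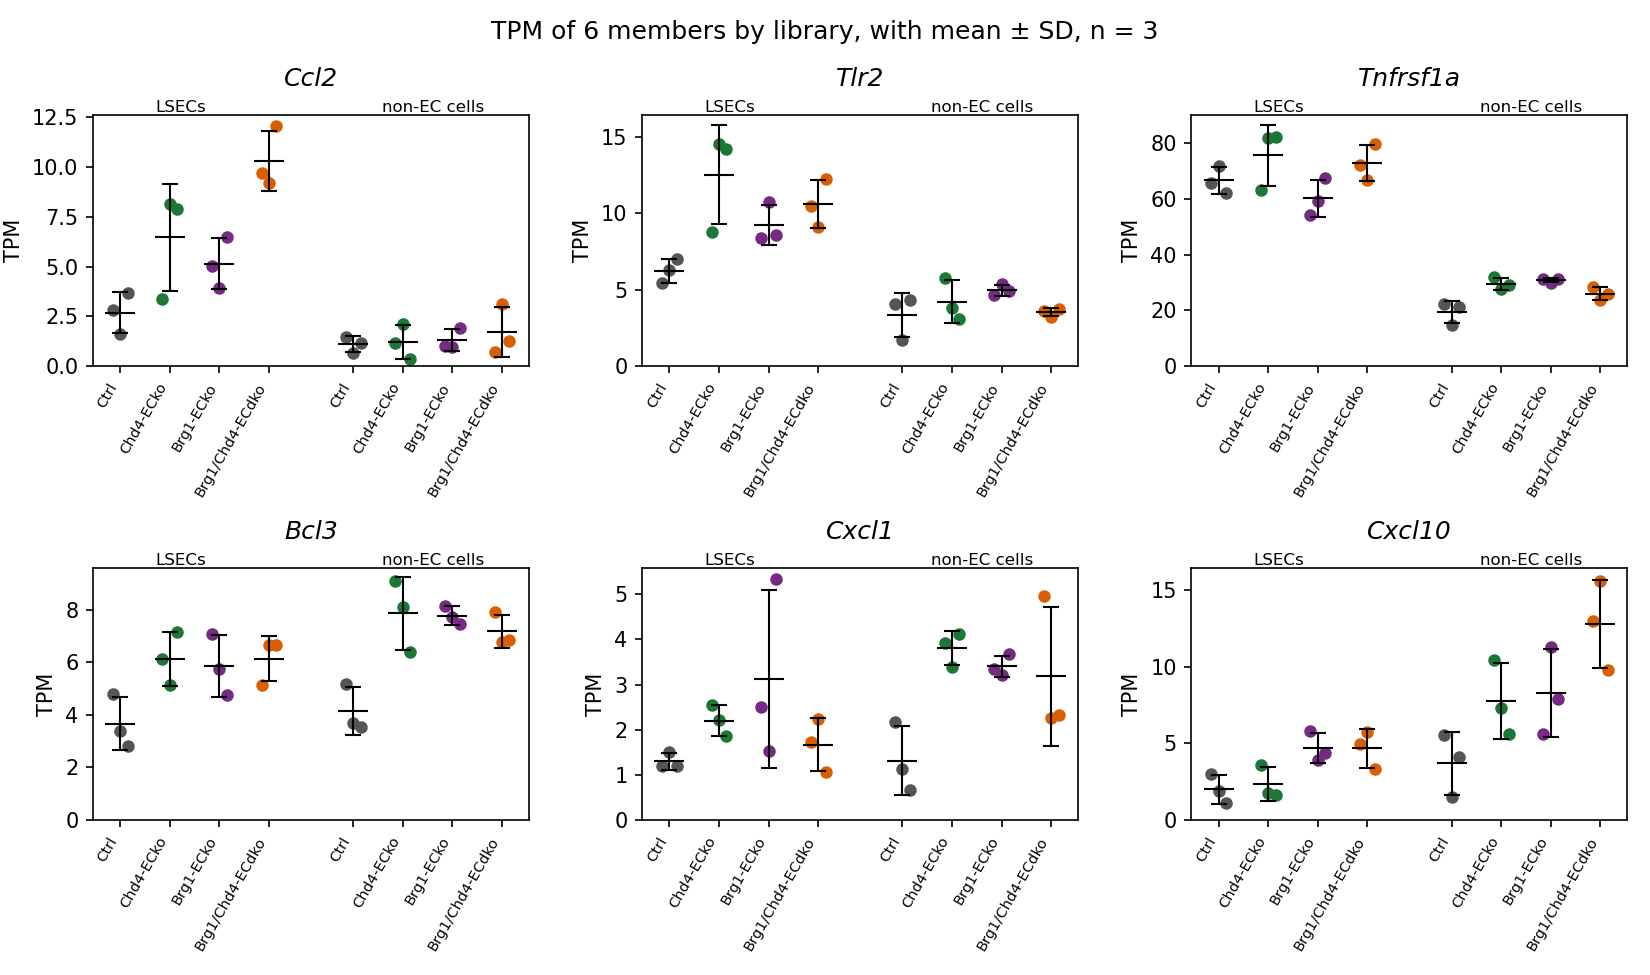
TPM of *Ccl2*, *Tlr2*, *Tnfrsf1a*, *Bcl3*, *Cxcl1* and *Cxcl10* in every library, by fraction and genotype, with 1 point per embryo, the group mean ± SD (n = 3) in black and each panel on its own linear axis. *Ccl2* lies between 9.21 and 12 TPM in *Brg1/Chd4-ECdko* LSECs and between 1.61 and 3.66 TPM in Ctrl LSECs.

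The second question was whether the same genes changed in non-EC cells, the cells left after CD146 selection. In *Chd4-ECko* non-EC cells 3 of 32 members rose and none fell, where 9.48% of 12223 genes were called and 6.17% were called higher. They were *Bcl3*, *Tnfrsf1a* and *Cxcl1*. In *Brg1-ECko* non-EC cells 6 of 32 rose and none fell, where 11.7% of all genes were called and 8.91% were called higher. These were *Bcl3*, *Tnfrsf1a*, *Csf1*, *Cd40*, *Relb* and *Cxcl1*. Both comparisons used the same 3 Ctrl libraries, so their shared genes are not independent. Over all genes in non-EC cells, mutant and Ctrl libraries did not overlap for 27.4% with *Chd4-ECko*, 39.9% with *Brg1-ECko* and 24% with *Brg1/Chd4-ECdko*.

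*Bcl3*, a nuclear IκB family member that binds p50 and p52 dimers, was at 5.19, 3.68 and 3.55 TPM in Ctrl non-EC cells. *Chd4-ECko* libraries held 9.1, 8.1 and 6.37 TPM of it, *Brg1-ECko* libraries 8.15, 7.71 and 7.46 TPM, and double mutants 7.9, 6.77 and 6.86 TPM. All 9 mutant libraries lay above all 3 Ctrl libraries. The log2 differences were 0.79 (SE 0.16, limma adjusted p = 0.016), 0.78 (SE 0.16, limma adjusted p = 0.00988) and 0.68 (SE 0.16, limma adjusted p = 0.075), the last of which did not pass. With the replicate number as a block *Bcl3* was called in the double mutant as well.

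*Tnfrsf1a* was at 22.2, 14.9 and 21.4 TPM in Ctrl non-EC cells. *Chd4-ECko* libraries held 31.8, 27.7 and 29.2 TPM, *Brg1-ECko* libraries 31.1, 30 and 31.4 TPM, and double mutants 28.3, 23.8 and 25.9 TPM. Mutants and Ctrl did not overlap, and Ctrl replicate 2 was the lowest library. The differences were 0.60 for *Chd4-ECko* (SE 0.14, limma adjusted p = 0.0279), 0.66 for *Brg1-ECko* (SE 0.14, limma adjusted p = 0.0123) and 0.42 for *Brg1/Chd4-ECdko* (limma adjusted p = 0.211).

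*Cxcl1*, a chemokine for neutrophils, was at 2.16, 1.12 and 0.673 TPM in Ctrl non-EC cells. *Chd4-ECko* libraries held 3.93, 3.4 and 4.12 TPM, *Brg1-ECko* libraries 3.34, 3.22 and 3.66 TPM, and double mutants 4.96, 2.26 and 2.32 TPM. The double mutants were uneven, with replicate 1 far above replicates 2 and 3, and these 2 lay just above the highest Ctrl library. The differences were 1.10 for *Chd4-ECko* (SE 0.26, limma adjusted p = 0.0296), 0.98 for *Brg1-ECko* (SE 0.26, limma adjusted p = 0.034) and 0.84 for *Brg1/Chd4-ECdko* (limma adjusted p = 0.176).

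*Csf1*, *Cd40* and *Relb* passed in *Brg1-ECko* non-EC cells. *Csf1* was at 2.82, 1.78 and 2.67 TPM in Ctrl and at 4.9, 3.72 and 4.42 TPM in *Brg1-ECko* (0.65, SE 0.16, limma adjusted p = 0.0213). It was at 4.01, 3.58 and 3.98 TPM in *Chd4-ECko* (0.52, limma adjusted p = 0.0565), and the double mutants held 3.92, 3.14 and 3.58 TPM. Every mutant library was above every Ctrl library for this gene. *Cd40* was at 2.09, 2 and 2.35 TPM in Ctrl and at 5.83, 3.23 and 4.16 TPM in *Brg1-ECko* (0.75, SE 0.20, limma adjusted p = 0.0302), with 4.47, 3.8 and 3.12 TPM in *Chd4-ECko*. The double mutants, at 2.61, 1.67 and 2.52 TPM, overlapped Ctrl. *Relb* was at 1.51, 0.972 and 1.47 TPM in Ctrl and at 2.92, 2.53 and 2.68 TPM in *Brg1-ECko* (0.68, SE 0.18, limma adjusted p = 0.0319), with 1.73, 2.61 and 1.63 TPM in *Chd4-ECko*. The double mutants, at 1.75, 2.17 and 1.24 TPM, reached into the Ctrl range. *Relb* and *Bcl3* lie 193 kb apart on chromosome 7. *Relb*, *Cd40*, *Csf1* and *Cxcl1* are among the genes whose κB matches are shown above, whereas *Bcl3* and *Tnfrsf1a* have none in their window.

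These calls rest on few libraries. In *Chd4-ECko* 0 members passed without Ctrl replicate 2 or without *Chd4-ECko* replicate 2, 1 passed without Ctrl replicate 3 (*Tnfrsf1a*) or *Chd4-ECko* replicate 3 (*Bcl3*), and 8 passed without *Chd4-ECko* replicate 1, of which 4 rose and 4 fell. That last fit called 4592 of 12180 genes, against 1159 of 12223 with all libraries. All 3 calls were also lost when Ctrl and *Chd4-ECko* were fitted without the other genotypes (0 members and 165 of 11848 genes called). For *Brg1-ECko*, *Bcl3* was called in every such fit, alone without *Brg1-ECko* replicate 1 or 3, beside *Tnfrsf1a* without Ctrl replicate 2, and beside *Tnfrsf1a* and *Csf1* without Ctrl replicate 3. Without Ctrl replicate 1 *Bcl3*, *Tnfrsf1a*, *Csf1* and *Cxcl1* were called, and without *Brg1-ECko* replicate 2 *Bcl3*, *Tnfrsf1a*, *Csf1* and *Cd40*. *Relb* was thus called in 0 of these 6 fits, and *Cd40* and *Cxcl1* in 1 each.

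Several marker lists moved with these results. Hepatoblast markers summed to 15676 to 17497 TPM in Ctrl non-EC cells, to 23277 to 32233 TPM for *Chd4-ECko*, to 22728 to 33603 TPM for *Brg1-ECko* and to 19912 to 26606 TPM for the double mutant, with 6 of 6 genes detected and every mutant library above every Ctrl library. By limma's adjusted test 5 of the 6 markers rose with *Chd4-ECko*, all 6 with *Brg1-ECko* and 0 with the double mutation. In the double mutant all 6 were still above Ctrl, 4 of them at an unadjusted p under 0.05. Erythroid markers summed to 2008 to 7105 TPM in Ctrl, 2326 to 7209 TPM in *Chd4-ECko* and 1399 to 2642 TPM in *Brg1-ECko* non-EC cells. By the adjusted test 1 of the 7 fell in *Chd4-ECko* and 2 fell in *Brg1-ECko*, where all 7 were below Ctrl. Macrophage markers summed to 117 to 299 TPM in Ctrl, 214 to 393 TPM in *Chd4-ECko* and 244 to 427 TPM in *Brg1-ECko* non-EC cells, and overlapped. Of the 11 tested, 10 were above Ctrl in *Chd4-ECko* and all 11 in *Brg1-ECko*, with a median log2 difference of 0.52 in each, and 3 and 2 were higher at an unadjusted p under 0.05 by limma, with 0 called. Granulocyte markers summed to 599 to 1789 TPM in Ctrl and 577 to 719 TPM in *Chd4-ECko* non-EC cells, where all 7 were below Ctrl (median −0.71), 3 of them at an unadjusted p under 0.05, with 0 called. All 6 megakaryocyte markers were also below Ctrl there, 1 at an unadjusted p under 0.05 and 0 called. Dissociation genes summed to 60.6 to 70.8 TPM in Ctrl, 73.9 to 92.2 TPM in *Chd4-ECko* and 72.5 to 77.1 TPM in *Brg1-ECko* non-EC cells, with every single mutant library above every Ctrl library and 0 of 8 tested genes called. At an unadjusted p under 0.05 by limma 3 of the 8 were higher in *Chd4-ECko* and 0 differed in *Brg1-ECko*. Mesenchymal markers summed to 21.6 to 49.6 TPM in Ctrl and 39.7 to 83.1 TPM in *Chd4-ECko*, where all 6 were above Ctrl and 1 (*Dcn*) was called, and to 36.2 to 58.7 TPM in *Brg1-ECko*, where all 6 were above Ctrl and 0 were called. Endothelial markers summed to 33.4 to 57.6 TPM in Ctrl, 41.5 to 51.8 TPM in *Chd4-ECko* and 49.6 to 78.6 TPM in *Brg1-ECko* non-EC cells. Of the 8 tested, 1 was higher and 1 lower in *Chd4-ECko* at an unadjusted p under 0.05 by limma. In *Brg1-ECko* 3 were higher and 1 lower at that p, and 0 were called in either mutant. In the double mutant all 7 erythroid, all 7 granulocyte and all 6 megakaryocyte markers were below Ctrl. Of these, 1 granulocyte and 1 megakaryocyte marker had an unadjusted p under 0.05. All 6 mesenchymal and 8 of 11 macrophage markers were above Ctrl there, and 0 of these lists' genes were called. The part of these lists in the values of *Bcl3*, *Tnfrsf1a*, *Cxcl1*, *Csf1*, *Cd40* and *Relb* was not tested.

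**Figure D4:**
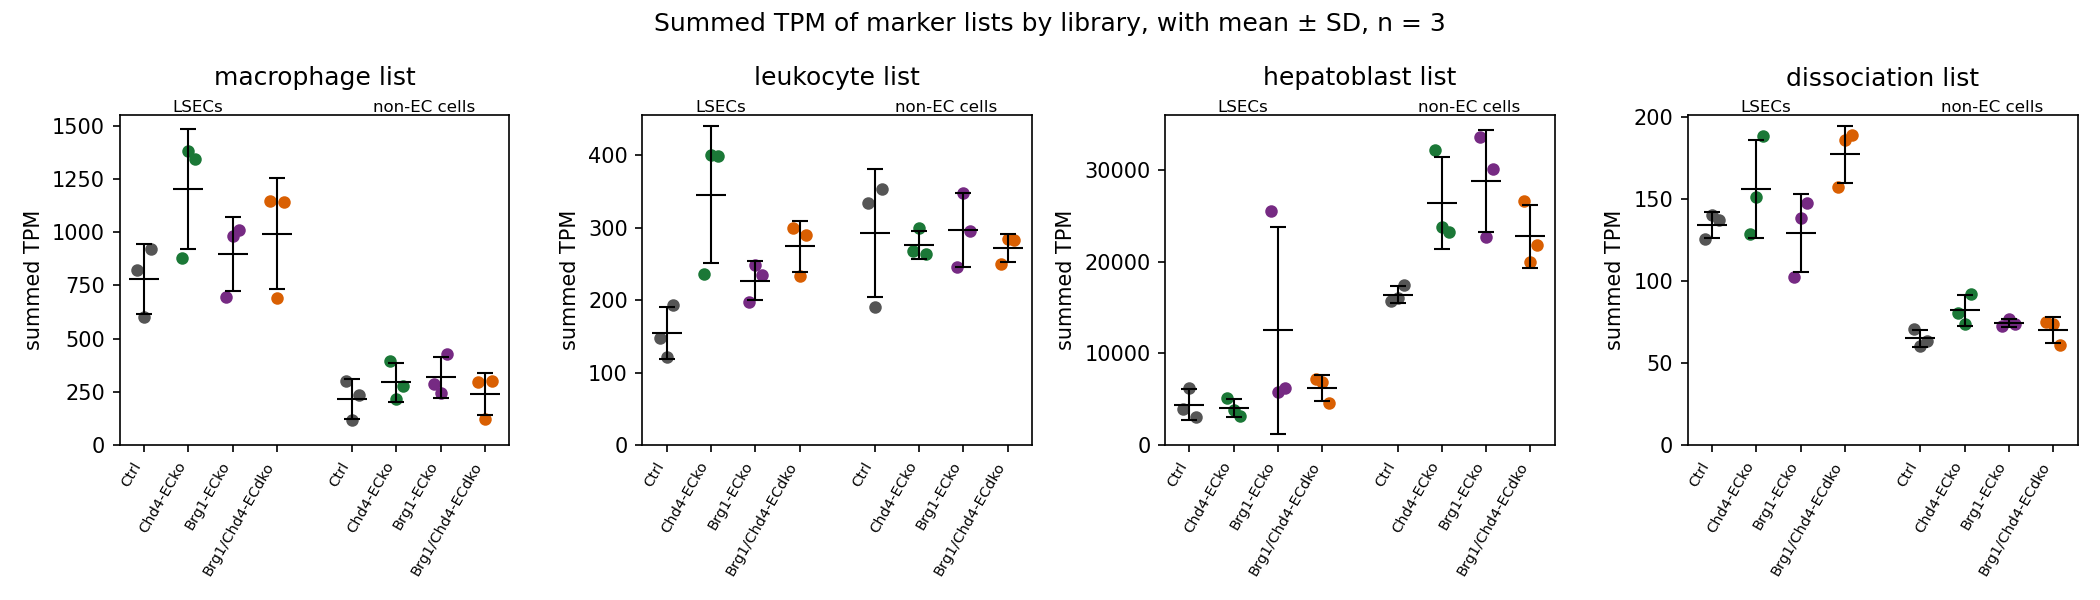
Summed TPM of the macrophage, leukocyte, hepatoblast and dissociation lists in each library, on linear axes, by fraction and genotype, with 1 point per embryo and the group mean ± SD (n = 3) in black. Leukocyte markers are higher in the LSECs of every mutant (198 to 400 TPM) than in Ctrl LSECs (122 to 193 TPM), and hepatoblast markers are higher in the non-EC cells of every mutant than in those of Ctrl.

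With all 12 libraries in the model, no component fell by the adjusted test in the non-EC cells of a single mutant. *Birc2* fell in *Chd4-ECko* under quantile normalization, and *Chuk* fell in *Brg1-ECko* when only the compared groups were fitted. In *Chd4-ECko* 10 of 25 components were below Ctrl, and those with an unadjusted p under 0.05 by limma, which 18.7% of all genes reached in this direction, were *Birc2* (cIAP1, −0.64, limma adjusted p = 0.0802), *Chuk* (−0.62, 0.0979) and *Ripk1* (−0.25, 0.0902). *Birc2* was at 25.1, 18.1 and 26.6 TPM in Ctrl and at 21.5, 12.8 and 10.7 TPM in *Chd4-ECko*, and *Chuk* at 47.2, 40.8 and 45.5 TPM and 44.4, 26.2 and 19.8 TPM. For both genes *Chd4-ECko* replicate 1 lay within the Ctrl range and the other two mutants below it, and without that replicate *Birc2*, *Chuk* and *Ripk1* were called in the fit that called 4592 of 12180 genes. The subunits *Nfkb1* (−0.07, interval −0.33 to 0.20) and *Rela* (0.10, −0.17 to 0.37) did not pass.

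In *Brg1/Chd4-ECdko* non-EC cells 0 of 32 members passed, where 0.581% of all genes did, and 7 had an unadjusted p under 0.05 by limma, all higher (11.7% of all genes). The largest was *Cxcl10*, at 5.53, 1.49 and 4.11 TPM in Ctrl and 13, 15.6 and 9.8 TPM in *Brg1/Chd4-ECdko*. The groups do not overlap, and the difference was 1.64 (SE 0.35, interval 0.86 to 2.42, limma adjusted p = 0.06). In *Chd4-ECko* *Cxcl10* was at 10.5, 7.29 and 5.58 TPM and in *Brg1-ECko* at 5.64, 11.3 and 7.93 TPM, so every mutant library was above every Ctrl library (0.97 and 1.04, limma adjusted p = 0.0875 and 0.0808). *Nfkbia* was between 18 and 23.2 TPM in the 9 mutants and 16.8, 12.7 and 18.2 TPM in Ctrl, and was not called in any mutant, although under quantile normalization it rose in both single mutants.

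Between *Brg1/Chd4-ECdko* and the single mutants 0 members passed in non-EC cells, where 0% of all genes passed in either contrast. By an unadjusted p under 0.05 in limma there were 5 members against *Chd4-ECko* (21.8% of all genes) and 4 against *Brg1-ECko* (12.7%). *Cd40* was lower in the double mutant in both contrasts, by −0.56 and −0.71 on the log2 scale (limma adjusted p = 0.217 and 0.269), and *Relb* by −0.46 against *Brg1-ECko* (0.355).

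**Figure D5:**
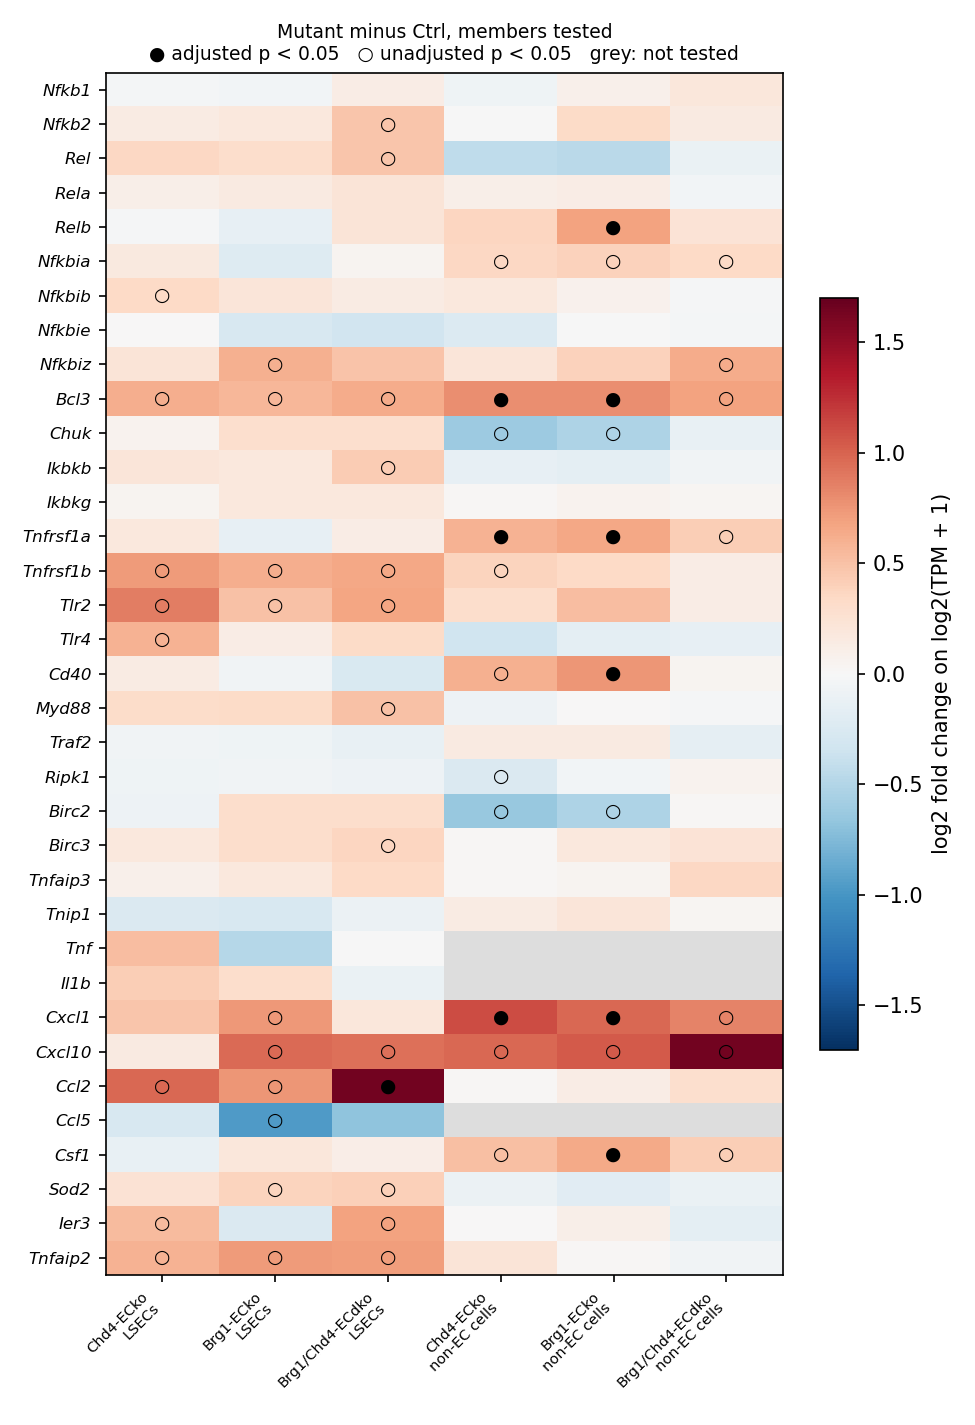
Colour map of the log2 difference from Ctrl, on log2(TPM + 1), of the 35 members tested (rows) for the 3 mutant genotypes in LSECs and in non-EC cells (columns), with filled circles for an adjusted p under 0.05 in limma, open circles for an unadjusted p under 0.05 only, and grey where a member was not tested. The filled circles mark *Ccl2* in *Brg1/Chd4-ECdko* LSECs, 3 members in the *Chd4-ECko* non-EC column and 6 in the *Brg1-ECko* non-EC column.

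Whether a genotype's effect differed between the fractions was tested with interaction terms over the 24 libraries. For *Brg1-ECko* 1 of 35 members passed, *Tnfrsf1a*, where 1.04% of all genes did. Its LSEC values were 65.7, 71.8 and 62.1 TPM in Ctrl and 54.2, 59.1 and 67.3 TPM in *Brg1-ECko*, which overlap (−0.14, interval −0.44 to 0.15), while non-EC values were higher in all 3 mutants. The lowest LSEC value, 54.2 TPM, is that of *Brg1-ECko* replicate 1, the library that stood apart in hepatoblast markers and had the lowest endothelial sum (945 TPM), and hepatoblast markers also rose in the *Brg1-ECko* non-EC cells. Without that LSEC library the coefficient was −0.73 (limma adjusted p = 0.101), and the part of these markers was not tested. The LSEC effect was lower than the non-EC effect by 0.80 on the log2 scale (coefficient −0.80, SE 0.19, limma adjusted p = 0.0483). With the embryo pair as a block the limma adjusted p was 0.087. The call held only without *Brg1-ECko* LSEC replicate 3 (limma adjusted p = 0.0299) or Ctrl non-EC replicate 1 (0.0336), and was lost without each of the other 10 libraries compared (0.056 to 0.127). *Relb* (−0.83, limma adjusted p = 0.0876) and *Cd40* (−0.82, 0.0878) had differences of like size and were not called. At an unadjusted p under 0.05 by limma there were 12 members for *Brg1-ECko*, 6 higher and 6 lower, against 17.9% of all genes. For *Chd4-ECko* 0 members passed (1.02% of all genes) and 5 had an unadjusted p under 0.05 by limma (19.1% of all genes). For *Brg1/Chd4-ECdko* 0 passed (0.0581%) and 7 had an unadjusted p under 0.05 (7.57%).

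Other genes of the pathway were read from a list of 44 signalling genes and a list of 29 targets. Between the fractions 13 of 41 signalling genes tested were called higher in LSECs and 19 lower, and 13 of 21 targets were higher and 5 lower. Over all genes 82.6% were called, 41.4% higher and 41.2% lower, so a call was the rule here too. The largest differences toward LSECs were in *Il1a* (2.94, 20.4 ± 3.81 against 1.93 ± 1.17 TPM), an interleukin-1 ligand, the chemokine *Cxcl16* (2.08) and the double-stranded RNA receptor *Tlr3* (1.79). Toward non-EC cells they were in the chemokine *Cxcl5* (−1.23), the kinase *Irak2* of the interleukin-1 pathway (−0.92) and *Rbck1*, a subunit of the linear ubiquitin ligase (−0.87). For comparison, *Il1b* averaged 0.869 ± 0.512 TPM in LSECs.

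By genotype, 0 of 39 signalling genes and 0 of 20 targets passed in the LSECs of any mutant. By limma's unadjusted p under 0.05 there were 9 and 1 for *Chd4-ECko*, 4 and 2 for *Brg1-ECko*, and 13 and 4 for the double mutant, where the shares of all genes were 6.49%, 9.68% and 12.1%. In non-EC cells 3 of 40 signalling genes and 0 of 17 targets passed in each single mutant, which is no more than the 9.48% and 11.7% of all genes given above. *Ltbr*, the lymphotoxin β receptor that feeds the non-canonical pathway, rose by 0.63 in *Chd4-ECko* (51.4 ± 2.29 against 32.9 ± 3.94 TPM, SD, n = 3, limma adjusted p = 0.00833) and by 0.85 in *Brg1-ECko* (59.7 ± 3.02 TPM). *Ikbke*, an IKK-related kinase, rose by 0.69 and 0.78. *Tank*, an adaptor that binds TRAF proteins and IKK-related kinases, fell by 0.66 in *Chd4-ECko* (limma adjusted p = 0.042), and *Ticam1* (TRIF), the adaptor of *Tlr3*, rose by 0.43 in *Brg1-ECko* (limma adjusted p = 0.034). *Ltbr* was also called in the *Brg1-ECko* interaction (−0.85, limma adjusted p = 0.0133), with the same sign as *Tnfrsf1a*.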

How the data were processed

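RNA of 24 libraries was analysed. The authors added transcription inhibitors to the digestion, lysed red cells, selected CD146+ cells with MicroBeads and sequenced the RNA of both fractions. Alignment was to the mouse genome GRCm39 (mm39) with CLC Genomics Workbench, in a version not given in the sources used here. The deposited values are TPM per gene, and because they sum to the same total in each library the depth of a library and its counting error cannot be read from them. The 8 deposited columns of group means were not used, and columns of other samples numbered 0.

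Tests used log2(TPM + 1) and limma 3.58.1 (R 4.3.3) with a variance trend, in a model of the 12 libraries of each fraction, and in a model of all 24 for the fractions and interactions. A gene entered a model if 3 or more of its libraries reached 1 TPM, 13444 in LSECs, 12223 in non-EC cells and 13775 in all. The pseudocount of 1 TPM understates the change of low genes. Tests were two-sided, p-values were adjusted over all genes by the Benjamini-Hochberg method, and a call is an adjusted p under 0.05. Replicates correlated at 0.981 to 0.996 and none were identical. Each replicate is a separate embryo. Within a genotype, the LSEC and non-EC libraries with the same number deviated together (correlations 0.124 to 0.411, mean 0.270). They were taken as embryo pairs only in the fits with the pair as a block. The main models treated the fractions of an embryo as independent, so their SEs and p-values ignore the pairing.

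Members, gene lists and tests were chosen with earlier results of these data known. All members are reported, with library values for those called between genotypes or in an interaction, those with the 10 largest fraction differences, the cytokine genes and those under the filter. Other pathway genes are named where a genotype contrast called them or among the 3 largest fraction differences in each direction. Only the limma fit of *Brg1/Chd4-ECdko* against Ctrl in LSECs was tested on simulated data. Alternatives were a pseudocount of 0.1 TPM, no filter, quantile normalization, a filter on a mean of 5 TPM, no trend, replicate blocks, a log2 fold change over 1, the compared groups or the control libraries alone, and each library left out. Python 3.11.15 with numpy 2.4.6, pandas 2.3.3 and matplotlib 3.10.9 made tables and figures, and the files were read with the R package data.table (1.17.8).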

Additional observations from a re-analysis of the deposited data

Results flagged for a closer look

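The *Brg1-ECko* effect on *Tnfrsf1a* differed between LSECs and non-EC cells by the interaction term, with a coefficient of −0.80 on the log2 scale (SE 0.19, limma adjusted p = 0.0483). The gene was higher in 3 of 3 *Brg1-ECko* non-EC libraries than in all Ctrl non-EC libraries, while the LSEC groups overlapped. The lowest LSEC value was in *Brg1-ECko* replicate 1, the library with the most hepatoblast transcripts among LSECs. With the embryo pair as a block the limma adjusted p was 0.087, with no filter 0.0536 and with no variance trend 0.0555. The call was lost without each of 10 of the 12 compared libraries (limma adjusted p 0.056 to 0.127).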

How the results depend on the processing

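TPM keep no depth of single libraries, and the study states only a nominal number of reads, so low values such as those of *Il6*, *Il1b* and *Tnf* carry a counting error that cannot be given. The counts below are of members called, and no difference called between genotypes changed direction under an alternative. The 34 members called between fractions became 9 at a log2 fold change over 1 and 22 in the control libraries alone, and lay between 31 and 34 when single libraries were left out. Quantile normalization moved the median of all genes between the fractions by −0.14.

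In LSECs, *Chd4-ECko* gave 1 (*Tlr2*) with a replicate block, 0 to 3 when single libraries were left out, and 1 without *Brg1-ECko* replicate 1. *Brg1/Chd4-ECdko* gave 0 under quantile normalization, 2 with a replicate block (*Ccl2* and *Cxcl10*), 3 in the compared groups alone, 0 or 1 when single compared libraries were left out, and 3 without *Brg1-ECko* replicate 1. Leaving *Brg1-ECko* replicate 1 out of contrasts that do not compare it was chosen after seeing the data.

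In non-EC cells, *Chd4-ECko* gave 8 under quantile normalization (with *Birc2*, *Cd40*, *Csf1*, *Cxcl10* and *Nfkbia* added, of which *Birc2* fell), 1 at a log2 fold change over 1, 0 in the compared groups alone and 0 to 8 when single libraries were left out. *Brg1-ECko* gave 2 at a mean of at least 5 TPM, 0 at a log2 fold change over 1 and 1 to 4 when single libraries were left out. *Brg1/Chd4-ECdko* gave 1 (*Cxcl10*) under quantile normalization and 1 (*Bcl3*) with a replicate block, and against *Chd4-ECko* 0 to 6 when single libraries were left out, the 6 without *Chd4-ECko* replicate 1, in a fit that called 3943 of 12180 genes. The *Chd4-ECko* interaction gave 0 to 4, the 4 without non-EC *Chd4-ECko* replicate 1 (*Birc2*, *Chuk*, *Rel* and *Tlr4*), in a fit that called 1913 of 13758 genes. The *Brg1-ECko* interaction gave 0 with no filter, 0 with no trend, 0 at a log2 fold change over 1, 0 with a replicate block of embryo pairs and 0 to 2 when single libraries were left out. The cause of these changes was not tested.

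Across genotypes, libraries share only a replicate number. Deviations of same-numbered libraries correlated at a mean of 0.171 in LSECs (−0.04 to 0.39) and 0.127 in non-EC cells (−0.33 to 0.50), and the replicate block moved the *Chd4-ECko* non-EC count from 3 to 4 and changed no other count beyond those given.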
